A study of Mus musculus with 70 samples.

Results

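The genotype-by-diet interaction in female mouse liver asks, gene by gene, whether a NASH (nonalcoholic steatohepatitis) diet moved the liver transcriptome differently in mice with a myeloid osteopontin knock-in than in their controls. It is the diet effect in the knock-in minus the diet effect in the control genotype, on the log2 scale. All 16 female liver libraries of the series entered it, of 70 libraries in all. Of the 24982 genes in the female liver table, 13315 had enough reads to be tested, and 635 of these passed an adjusted p of 0.05. The control mice, titled WT, have the genotype label Lyz2.Cre+/+. The knock-in mice are labelled OpnKI Mye (KI here), by that name a knock-in of osteopontin in myeloid cells, and their label does not say how many Lyz2.Cre copies they carry. Each genotype was fed a control diet or the NASH diet for 24 weeks, with 4 libraries of total liver RNA in each of the 4 groups (WT control, WT NASH, KI control and KI NASH). The labels number the libraries but do not say that each came from a separate mouse, so p-values measure the spread between these libraries.

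Osteopontin, the product of Spp1, is a secreted phosphoprotein that binds integrins and CD44. In steatohepatitis it is made by injured biliary and other parenchymal cells and by macrophages that take up lipid. The Lyz2.Cre line expresses Cre recombinase from the lysozyme 2 locus and so acts in macrophages and neutrophils, and the insertion disrupts Lyz2 itself. The liver answers to diet through hepatocyte programmes of lipid synthesis, fasting and the acute phase, and through matrix deposition and immune cell entry. All of these are read together in bulk RNA, in which fewer cells of a type and less RNA per cell cannot be told apart.

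Depth was even, at 17917827 to 23669846 counts per library, which limits counting error for all but the lowest genes. Hepatocyte genes gave 89700 to 168000 CPM (counts relative to library size, with TMM scaling) as a list of 18, as the tissue label says. Spp1 was at 26.3, 19, 23.3 and 46.6 CPM in KI control and at 29.9, 23.4, 31.2 and 24 CPM in WT control, so the groups overlapped and Spp1 in total liver does not check the knock-in. Lyz2, the Cre locus, split the libraries in another way. It was at 1.09 to 2.48 CPM in all 8 WT libraries, at 22.7 to 45 CPM in KI control, and at 1.23, 1.17, 62.9 and 38.1 CPM in KI NASH libraries 1 to 4. KI NASH libraries 1 and 2 thus had the Lyz2 level of the WT libraries. The first principal component held 27.1% of the variance and placed all 4 KI control libraries (-42.8 to -27.7) on the same side as WT NASH libraries 3 (-29.3) and 4 (-19). The other 10 libraries lay between 3.4 and 31.6. Counts without these library pairs are given below beside the results, and the part of Lyz2 dosage in them was not tested.

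The diet effect was more negative in KI for 355 genes and more positive for 280, which is 4.77% of the genes tested in either direction, 2.67% negative and 2.1% positive. With library totals in place of TMM scaling, which took the median of all genes to 0.173, the split was 255 negative and 609 positive, and all 635 genes kept their sign. The WT diet effect alone passed for 7 genes (0.0526%), 5 higher and 2 lower on the NASH diet, while the KI diet effect passed for 1176 (8.83%). KI differed from WT on the control diet for 1008 genes (7.57%) and on the NASH diet for 12 (0.0901%). These 5 comparisons share libraries, so their counts are not independent of each other. The median interaction over all genes tested was -0.01. At the threshold, Ttc9c, Arhgef3 and Furin were the last to pass, with unadjusted p of 0.00232 to 0.00237, and Scfd1, 2610507I01Rik and Camk2n1 were the first that did not, with 0.0024 to 0.00241.

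**Figure D1:**
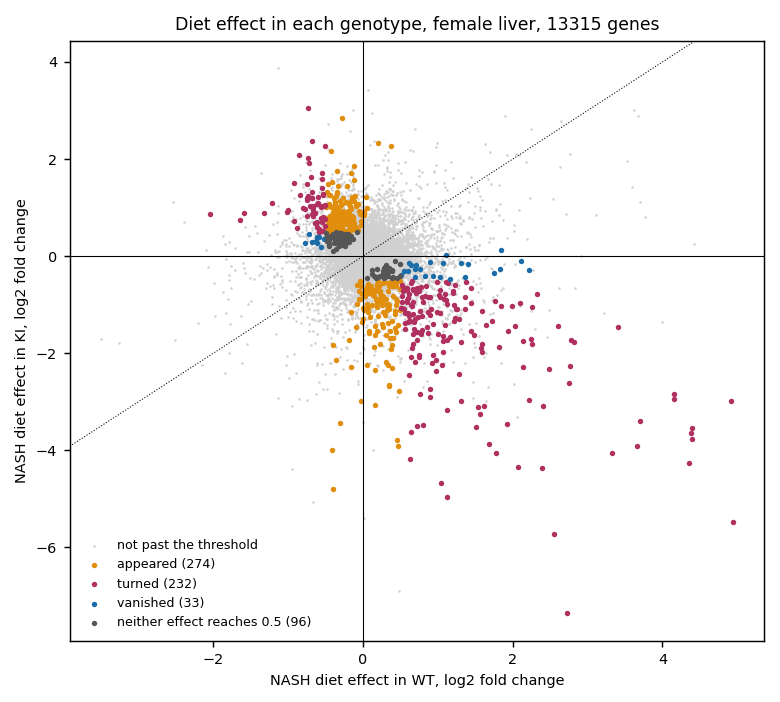
NASH diet effect in WT (horizontal axis) against that in KI (vertical axis) for 13315 genes, as log2 fold changes of the edgeR fit, with genes past the interaction threshold coloured by class; the dotted line marks equal effects. The 232 turned genes fill the upper left and lower right quadrants, and the 33 vanished genes lie along the horizontal axis.

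The genes past the threshold were sorted by the size of both diet effects, with 0.5 on the log2 scale as the bound. In 232 genes (36.5%) both effects reached the bound with opposite signs, so that the diet effect turned. In 171 of these it was positive in WT and negative in KI, and in 61 the reverse. In 33 genes (5.2%) the effect reached the bound in WT and not in KI, so that it vanished. In 274 genes (43.1%) it reached the bound in KI only, and in 96 in neither. No gene past the threshold had effects of one sign that both reached the bound. Over all genes tested the same bounds gave 4.22% turned, 7.24% vanished and 15.8% appearing in KI. The classes rest on fitted effects and not on 2 passing tests. Of the 232 turned genes, 2 passed in WT (Sox12 and Amigo1), and 142 passed in KI. The libraries separated in both genotypes, in opposite directions, for 12 of the 171 (7.02%) and 14 of the 61 (23%). Over all genes tested this held for 0.533%. WT control and WT NASH did not overlap for 31 of the 171 and 19 of the 61. These counts follow in part from how the class was chosen.

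Among the 355 genes with a more negative effect, KI control had the highest group mean in 296 and WT NASH in 59. Among the 280 with a more positive effect KI control had the lowest mean in 255 and WT NASH in 25. A sign of the interaction favours these 2 groups as the extremes, so the counts are a description of the genes chosen. Set against the WT control mean, the median of the 355 genes stood at 1.09, 0.7, 0.98 and 1.22 (log2) in the 4 KI control libraries and at -0.04 to 0 in KI NASH. In WT NASH it stood at 0.06 and 0.09 in libraries 1 and 2 and at 0.98 and 0.78 in libraries 3 and 4. WT NASH was thus made of 2 unlike pairs, one near WT control and one near KI control. The 280 genes mirrored this, at -0.58 to -0.79 in KI control and at -0.14, -0.18, -0.64 and -0.46 in WT NASH.

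**Figure D2:**
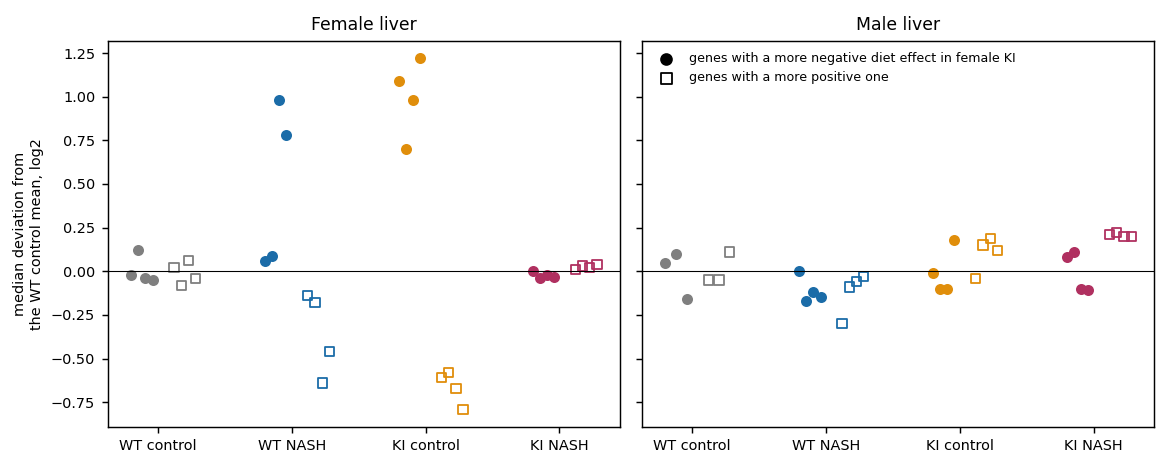
Median deviation from the WT control mean (log2 CPM) per library over the 355 genes with a more negative (filled circles) and the 280 with a more positive (open squares) diet effect in female KI, in female liver (left) and male liver (right). In females KI control and WT NASH libraries 3 and 4 stand apart, and the male libraries stay between -0.30 and 0.22.

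Without WT NASH libraries 3 and 4, 73 genes passed (33 positive, 40 negative), 69 of them among the 635, and all 635 kept their sign. The median interaction of the 355 genes then went from -1.7 to -1.18, and that of the 280 from 1.06 to 0.9. Without KI NASH libraries 1 and 2, 25 genes passed, 22 of them among the 635. Without KI NASH libraries 3 and 4, 7 passed, 6 of them among the 635. The medians were as large without either KI NASH pair (-1.7 and 1.07, and -1.69 and 1.06). Leaving out single libraries gave 254 (without KI control 4) to 1198 genes (without WT NASH 1), and all 635 kept their sign. The 635 were chosen in these same libraries, so the kept signs follow in part from that choice. 16 genes passed in the full set, without WT NASH 3 and 4 and without KI NASH 1 and 2. Among them were Cyp2b10, Plin4, Lyve1 and Psmd14 with a more negative effect and Sox12, Amigo1 and Lgr5 with a more positive one. The fit without KI NASH 3 and 4 was not part of this choice. Only 1 gene with a more negative effect passed in it, against 6 with a more positive one, so most of the 16 did not hold there. Single genes are given below for the other pairs only.

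Genes that turned from higher to lower on the NASH diet held the largest interactions. They include enzymes of steroid and drug metabolism, the cell cycle inhibitor encoded by Cdkn1a and metal-binding proteins. Adcy1 (chr11:7063489-7178506), an adenylyl cyclase that makes cyclic AMP, was at 1.68, 1.38, 0.326 and 0.496 CPM in WT control, 2.72, 1.88, 17.2 and 58.1 in WT NASH, 5.29, 22, 29.8 and 23 in KI control, and 0.321, 0.181, 2.28 and 1.34 in KI NASH. All WT NASH libraries lay above WT control, all KI NASH libraries lay below KI control, and WT NASH 3 and 4 were far above 1 and 2. The interaction was -8.62 ± 1.45 (log2, standard error approximated from the test statistic, n = 4 per group), with an adjusted p of 0.01 in edgeR's quasi-likelihood test. Leaving out WT NASH 3 and 4 gave -5.51, with an adjusted p of 0.037. Without KI NASH 1 and 2 Adcy1 did not pass.

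Sult1e1 (chr5:87575969-87591594), the sulfotransferase that inactivates oestrogen, was separated in both genotypes. Its level was 0.0934, 0.666, 0.233 and 1.08 CPM in WT control and 9.92, 2.64, 28.5 and 2.77 in WT NASH, against 5.9, 1.06, 1.49 and 5.71 in KI control and 0.696, 0.181, 0.0457 and 0.215 in KI NASH. The interaction was -8.03 ± 1.34 (adjusted p = 0.01). Cyp2b10 (chr7:25897620-25926624), the cytochrome P450 induced through the nuclear receptor CAR, followed the same order. It was at 1.49, 1.14, 0.559 and 0.316 CPM in WT control, 5.61, 6.03, 18.5 and 5.14 in WT NASH, 37.2, 5.35, 15 and 29.7 in KI control, and 3.85, 0.406, 0.685 and 0.376 in KI NASH. Neither genotype's groups overlapped. The interaction of -7.38 ± 1.1 (adjusted p = 0.0083) was -6.78 without WT NASH 3 and 4 and -8.65 without KI NASH 1 and 2, and it passed both times (adjusted p = 0.023 and 0.017). Reads of Cyp2b10 can be shared with close paralogs, so its level is uncertain. Among the 25 genes of the xenobiotic P450 and nuclear receptor list it was the only one to pass (4%), and the list's median interaction was -0.14.

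Cdkn1a (chr17:29090976-29100727) encodes p21, an inhibitor of cyclin-dependent kinases and a target of p53. It was at 2.85, 4.85, 1.49 and 2.21 CPM in WT control, 3.88, 1.77, 74.8 and 63.8 in WT NASH, 224, 61, 167 and 196 in KI control, and 3.53, 21.9, 10.6 and 6.56 in KI NASH. KI control lay above every other library but WT NASH 3 and 4, and WT NASH 1 and 2 were at the WT control level. The interaction was -7.58 ± 1.34 (adjusted p = 0.011). It was -3.92 without WT NASH 3 and 4 and no longer passed (adjusted p = 0.059). Of the 24 tested genes on the p53 target list, Cdkn1a alone passed (4.17%), and the list's median interaction was -0.18. The window before the more upstream of its 2 RefSeq starts (GRCm38.p6, chr17:29090729-29090968, plus strand, 2790 bases before the other start) is shown because it holds matches to the p53 half-site, in capitals, which 7.13% of all 32851 RefSeq windows of 250 bases hold on either strand.
Cdkn1a upstream start: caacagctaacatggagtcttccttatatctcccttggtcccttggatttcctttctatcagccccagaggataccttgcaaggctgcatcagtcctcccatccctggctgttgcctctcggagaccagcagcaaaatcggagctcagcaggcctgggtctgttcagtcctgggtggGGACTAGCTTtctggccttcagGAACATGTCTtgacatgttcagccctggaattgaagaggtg
The 2 matches begin at -73 and -51 from that start. The window before the other start was searched as well and held no match. A match describes the letters of the window only.

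The metallothioneins Mt1 and Mt2, small proteins that bind zinc and copper and are induced by metals, glucocorticoids and the acute phase, moved together. They are neighbours on chromosome 8, with RefSeq starts 6471 bases apart. Mt2 was at 6.44, 48.5, 51.5 and 33.6 CPM in WT control, 137, 15.2, 701 and 965 in WT NASH, 1320, 801, 849 and 1030 in KI control, and 78.1, 89.7, 69.3 and 145 in KI NASH. The 2 high WT NASH libraries were again 3 and 4, and KI NASH lay below KI control in all 4. The interaction was -7.08 ± 1.23 for Mt2 (adjusted p = 0.011) and -5.37 ± 0.9 for Mt1 (adjusted p = 0.01). They were -4.5 and -3.43 without WT NASH 3 and 4 and still passed (adjusted p = 0.048 and 0.036). Neither passed without KI NASH 1 and 2.

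The acute phase genes were split within WT NASH as well, with a list median of -0.16 and -0.11 (log2 from the WT control mean) in libraries 1 and 2 and of 0.89 and 1.05 in libraries 3 and 4. Of 25 tested genes of the acute phase and STAT3 target list, 7 passed (28%, against 4.77% of all genes), all more negative in KI: Saa1, Saa2, Orm3, Lcn2, Serpina3n, Serpina3m and Steap4. The list's median interaction was -0.99. Without WT NASH 3 and 4 it was -0.22 and no member passed. None passed without KI NASH 1 and 2 either, with a median of -0.82. In each of these fits 8 members had an unadjusted p below 0.05, where 2012 and 2428 of all genes did. Lcn2, lipocalin 2, a siderophore-binding protein of hepatocytes and neutrophil granules, was at 4.62, 8.09, 12.6 and 18.4 CPM in WT control, 12.6, 22.8, 424 and 324 in WT NASH, 419, 92.7, 43.7 and 182 in KI control, and 17.8, 19.2, 22.4 and 36.2 in KI NASH. Its interaction was -7.11 ± 1.35 (adjusted p = 0.014). Serpina3n, a protease inhibitor of the acute phase, had a CPM of 349 to 479 for WT control, of 357, 393, 1190 and 2030 for WT NASH, of 1270 to 2390 for KI control and of 599 to 763 for KI NASH, with an interaction of -2.54 ± 0.59 (adjusted p = 0.025).

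Saa1 and Saa2 encode serum amyloid A, apolipoproteins that the liver makes in the acute phase. Saa2 was at 11.6, 6.85, 38.9 and 23.5 CPM in WT control, 16.8, 41.8, 973 and 1420 in WT NASH, 696, 126, 18.9 and 76 in KI control, and 33.7, 13.1, 26.9 and 42.3 in KI NASH. The groups overlapped in both genotypes, and KI control itself ran from 18.9 to 696 CPM. The interaction was -7.9 ± 1.76 (adjusted p = 0.023), and Saa1 had -6.98 ± 1.63 (adjusted p = 0.026). The genes are near-identical copies, so reads may be split between them and each value is uncertain. Their upstream windows are shown because the same likeness holds there. From -250 to -51 of the RefSeq starts (GRCm38.p6, chr7:46743031-46743230 on the minus strand and chr7:46751583-46751782 on the plus strand), 93.5% of aligned positions were identical. Capitals mark the match to TTGCNNAA, a C/EBP site, searched on both strands and found in 9.56% of all windows of 250 bases.
Saa1 upstream: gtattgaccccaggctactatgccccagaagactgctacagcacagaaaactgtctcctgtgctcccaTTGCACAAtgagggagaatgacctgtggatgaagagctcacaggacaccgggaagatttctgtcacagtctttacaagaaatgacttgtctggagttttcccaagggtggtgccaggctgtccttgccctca
Saa2 upstream: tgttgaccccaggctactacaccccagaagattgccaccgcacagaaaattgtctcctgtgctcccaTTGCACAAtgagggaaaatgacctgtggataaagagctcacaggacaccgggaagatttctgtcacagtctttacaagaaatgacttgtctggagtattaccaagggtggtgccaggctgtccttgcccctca
Cebpd, which encodes the C/EBP factor delta, had an interaction of -3.11 ± 0.74 (adjusted p = 0.027).

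Of 9 tested members of the neutrophil list, 2 passed, Lcn2 and the decoy receptor Il1r2 (22.2%), and the list's median interaction was -2.61. Without WT NASH 3 and 4 it was -0.56 and none passed, and none passed without KI NASH 1 and 2 (-2.44). Lcn2 is also on the acute phase list. The 11 listed genes had a summed CPM of 13.5 to 31.2 for WT control, 20.3 to 450 for WT NASH, 103 to 433 for KI control and 27.5 to 51.5 for KI NASH. Lcn2, which hepatocytes also express, made up most of the highest sums. The other 10 genes summed to 8.87, 17.2, 7.6 and 12.7 CPM in WT control, 7.68, 9.38, 26.1 and 19.4 in WT NASH, 13.7, 40.9, 59.7 and 24.2 in KI control, and 15.3, 8.31, 14.9 and 15.2 in KI NASH. KI control and KI NASH overlapped in this sum, and so did the WT groups. S100a8, the granulocyte calprotectin subunit, had -2.12 ± 0.91 and did not pass (adjusted p = 0.18). Il6ra and Osmr, 2 of 10 tested genes of the oncostatin M and interleukin 6 pathway (20%), passed with -2.23 ± 0.56 (adjusted p = 0.033) and -1.46 ± 0.31 (adjusted p = 0.019). That list's median of -0.63 became -0.05 without WT NASH 3 and 4 and -0.55 without KI NASH 1 and 2. No member passed either time (2 at an unadjusted p below 0.05 in each). Of all genes, 2012 and 2428 had such a p in these fits. The part of neutrophil RNA in these results was not tested. Stat3 had -1.05 ± 0.37 (adjusted p = 0.1).

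**Figure D3:**
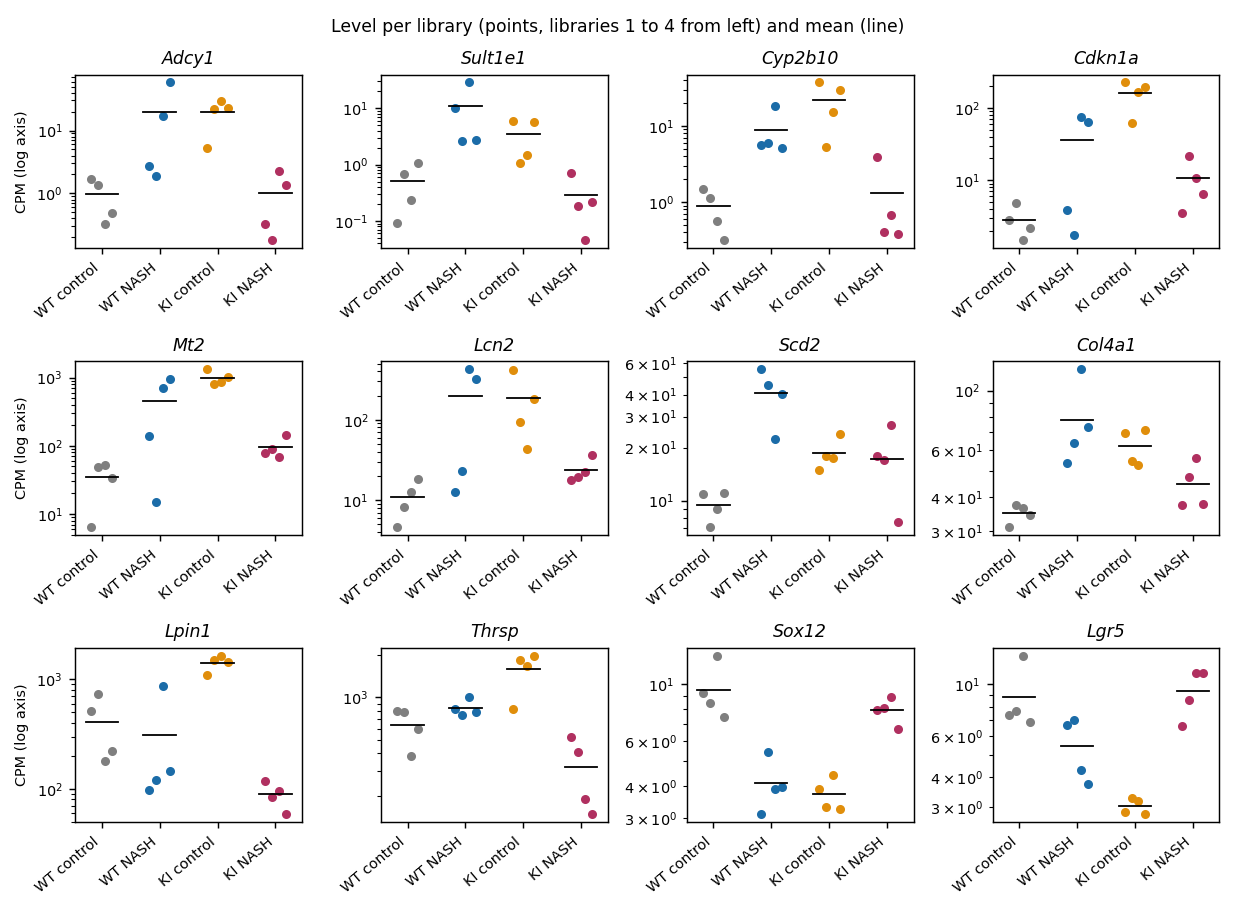
Level of 12 genes in each of the 16 female liver libraries (CPM, log axis), with the group mean as a line. In the upper rows most genes are high in KI control and in WT NASH libraries 3 and 4. Scd2 and Col4a1 are high in all 4 WT NASH libraries, and both also lie above WT control in all 4 KI control libraries. Sox12 and Lgr5 are lowest in KI control or WT NASH.

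The 33 genes whose diet effect vanished had a median effect of 0.71 in WT and -0.16 in KI. KI already differed from WT on the control diet for 16 of the 33, against 7.57% of all genes tested, and on the NASH diet for 1. Both comparisons share libraries with the interaction. WT control and WT NASH did not overlap for 30 of them, which follows in part from how the class was chosen (6.71% of all genes tested). The interaction was negative for 24 of them and positive for 9. They include basement membrane collagens, a desaturase and genes of the cell surface and cytoskeleton. Scd2 (chr19:44293674-44306864), a stearoyl-CoA desaturase that makes monounsaturated fatty acids, was at 10.9, 7.09, 8.99 and 11 CPM in WT control, 55.6, 45.4, 22.4 and 40.1 in WT NASH, 15, 18, 17.5 and 23.9 in KI control, and 17.9, 16.9, 26.9 and 7.53 in KI NASH. All WT NASH libraries exceeded all WT control libraries, while the KI groups overlapped. Every KI control library also lay above every WT control library. The diet effect was 2.11 ± 0.32 in WT (adjusted p = 0.039) and -0.1 ± 0.31 in KI (adjusted p = 0.88), and the interaction was -2.21 ± 0.45 (adjusted p = 0.017). It was -2.51 without WT NASH 3 and 4 (adjusted p = 0.026), and it did not pass without KI NASH 1 and 2.

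Col4a1 (chr8:11198423-11312826) and Col4a2 (chr8:11312805-11449287) encode the chains of the main collagen IV of basement membranes. They lie head to head on opposite strands, and their starts overlap by 22 bases. Col4a2 was at 17.1, 25.4, 21.2 and 17.8 CPM in WT control, 35.1, 45.2, 55.5 and 35.4 in WT NASH, 28.1, 32.4, 34.8 and 38.9 in KI control, and 23.4, 32, 35.4 and 30.7 in KI NASH. WT NASH was above WT control in every library, and KI NASH and KI control overlapped. KI control was above WT control in every library as well. Col4a1 was at 52.6 to 71.1 CPM in KI control, against 31 to 37.4 in WT control and 53.9 to 120 in WT NASH. The interaction was -1.21 ± 0.24 for Col4a2 (adjusted p = 0.017) and -1.63 ± 0.29 for Col4a1 (adjusted p = 0.012). Without WT NASH 3 and 4 it was -1.12 and -1.22 (adjusted p = 0.056 and 0.036). Neither gene passed without KI NASH 1 and 2. Of 28 tested matrix and fibrosis genes these 2 passed in the full set (7.14%), with a list median of -0.52. The fibrillar collagen Col1a1 had -1.35 ± 0.7 (adjusted p = 0.26) and Col3a1 -0.89 ± 0.52 (adjusted p = 0.32).

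Anxa2 (chr9:69453620-69491795), annexin A2, a calcium-dependent membrane-binding protein, was at 12.4, 13, 11 and 10.3 CPM in WT control and 26.8, 27.4, 28.4 and 18.1 in WT NASH. In KI it was at 9.63, 12.8, 12.8 and 18.2 on the control diet and 11.1, 13.5, 13.6 and 16.3 on the NASH diet, so that the KI NASH range lay inside that of KI control. The diet effect was 1.11 ± 0.18 in WT (adjusted p = 0.039) and 0.03 ± 0.19 in KI (adjusted p = 0.94), and the interaction was -1.08 ± 0.26 (adjusted p = 0.029). Psmd14, a deubiquitinase of the proteasome lid, was the class member with the smallest p. Its CPM ran from 28.8 to 31 for WT control, 38.7 to 52.3 for WT NASH, 46.5 to 49.6 for KI control and 35.8 to 40.5 for KI NASH, with an interaction of -0.9 ± 0.13 (adjusted p = 0.0081). KI control thus lay within the WT NASH range, and the KI diet effect of -0.3 passed as well (adjusted p = 0.045). Other members were Il7, a lymphocyte growth factor (-2.1 ± 0.51, adjusted p = 0.03), Fabp4, a fatty acid carrier of adipocytes and macrophages (-1.56 ± 0.34, adjusted p = 0.023), and Upp1, uridine phosphorylase (-1.72 ± 0.46, adjusted p = 0.044). Ccdc120 had -2.1 ± 0.48 (adjusted p = 0.024) and Urml -1.45 ± 0.34 (adjusted p = 0.026).

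Of the 7 genes whose WT diet effect passed, 6 also passed the interaction, against 4.77% of all genes tested. The WT diet effect is a term of the interaction, so this follows in part from how the 7 were chosen. Basp1, a membrane-bound signalling protein, was the exception, with a WT effect of 1.2 ± 0.2 and an interaction of -0.88 ± 0.28 (adjusted p = 0.084). Spp1 itself was at 49.3, 86.2, 95.6 and 85.9 CPM in WT NASH, above all WT control libraries, and at 26.1, 30.2, 52.9 and 26.5 in KI NASH, within the KI control range but for library 3. Its WT diet effect was 1.55 ± 0.29 (adjusted p = 0.058), its KI effect 0.24 ± 0.28 (adjusted p = 0.63) and its interaction -1.31 ± 0.4 (adjusted p = 0.071), so none of them passed. Cd44, an osteopontin receptor, had an interaction of 0.05 ± 0.38 (adjusted p = 0.96). Itgb3, the beta 3 integrin subunit of another osteopontin receptor, passed with -2.52 ± 0.47 (adjusted p = 0.013), the only one of 10 tested genes of the osteopontin and receptor list (10%).

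Genes with a turn in the other direction were lower on the NASH diet in WT and higher in KI. The genes named here were chosen among the 61 after their values were seen. Sox12 (chr2:152393611-152398063), a transcription factor of the SOX family, was at 9.24, 8.42, 12.9 and 7.44 CPM in WT control, 3.11, 5.43, 3.91 and 3.98 in WT NASH, 3.9, 3.32, 4.42 and 3.25 in KI control, and 7.92, 8.08, 8.95 and 6.67 in KI NASH. Neither genotype's groups overlapped. The diet effect was -1.21 ± 0.2 in WT (adjusted p = 0.039) and 1.08 ± 0.2 in KI (adjusted p = 0.0071), and the interaction was 2.3 ± 0.28 (adjusted p = 0.0042).

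Amigo1 (chr3:108186335-108192286), a leucine-rich repeat adhesion protein, was at 12.8, 11.2, 14.9 and 12.4 CPM in WT control, 7.16, 6.34, 6.74 and 6.93 in WT NASH, 8.46, 10.1, 10.5 and 7.42 in KI control, and 12, 14.5, 15 and 18.6 in KI NASH. WT NASH libraries 1 to 4 were close to each other here. The interaction was 1.63 ± 0.2 (adjusted p = 0.0042), and it was 1.64 without WT NASH 3 and 4. Lgr5 (chr10:115450311-115587780), the R-spondin receptor of hepatocytes around the central vein, had a CPM of 6.9 to 13.1 for WT control, of 6.68, 7, 4.31 and 3.75 for WT NASH, of 2.8 to 3.28 for KI control and of 6.64 to 11.1 for KI NASH. Its interaction was 2.32 ± 0.35 (adjusted p = 0.0083), with overlap in WT and none in KI. Foxa1, a pioneer factor of hepatocyte genes, had 2.1 ± 0.34 (adjusted p = 0.01), and Arrdc3, an arrestin-domain protein, 3.78 ± 0.69 (adjusted p = 0.012). Without KI NASH 1 and 2, Sox12, Amigo1 and Lgr5 still passed (adjusted p = 0.017, 0.011 and 0.017), and Foxa1 and Arrdc3 did not (adjusted p = 0.055 for each).

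Of the 274 effects that appeared in KI only, 147 had a more positive and 127 a more negative interaction. The genes named in this paragraph were among the largest, and all were more negative in KI. Some of them take part in fasting or lipid synthesis. Lpin1, a phosphatidate phosphatase and a coactivator in fasting, was at 516, 730, 181 and 220 CPM in WT control, 97.5, 121, 868 and 145 in WT NASH, 1100, 1490, 1630 and 1450 in KI control, and 119, 84.2, 96.1 and 59 in KI NASH. Every KI control library lay above the other 12, and the WT groups overlapped. The interaction was -3.57 ± 0.86 (adjusted p = 0.029). Ddit4, an inhibitor of mTORC1 under stress, had -4.41 ± 1.16 (adjusted p = 0.041), with 47.3 to 185 CPM for KI control and 2.94 to 4.97 for KI NASH. Slc2a4, the insulin-responsive glucose transporter, had -3.23 ± 0.76 (adjusted p = 0.027), and Snhg3, a small nucleolar RNA host gene, -3.02 ± 0.65 (adjusted p = 0.022). Cabyr (-4.23 ± 0.92, adjusted p = 0.023) and Jaml, a junctional adhesion molecule (-3.25 ± 0.59, adjusted p = 0.012), were below 7 CPM in every library.

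The fasting, glucagon and glucocorticoid list had the highest share of members past the threshold among the lists with 10 or more tested genes. Of 25, 8 passed (32%), all more negative in KI: Ppargc1a, Tat, Lpin1, Cebpd, Gadd45b, Mt1, Mt2 and Zbtb16. The median interaction was -1.72, with medians of 0.1 for the WT and -1.37 for the KI diet effect. Per library, the list's median stood 1.17, 1.19, 1.29 and 1.42 above the WT control mean in KI control, and at -0.5, -0.44, 1.18 and 0.29 in WT NASH. WT control library 2 was also high, at 0.89 against -0.35 to 0.07 in the other three. Tat, which breaks down tyrosine and is induced by glucocorticoids, was at 1750, 2850, 1160 and 960 CPM in WT control, 1290, 1070, 4730 and 1430 in WT NASH, 5210, 6020, 5800 and 6100 in KI control, and 923, 612, 1180 and 983 in KI NASH. Its interaction was -2.99 ± 0.6 (adjusted p = 0.017). The gluconeogenic genes did not pass: Pck1 had -0.27 ± 0.52 (adjusted p = 0.8) and G6pc 0.37 ± 0.68 (adjusted p = 0.78). Igfbp1, a fasting-induced binding protein of insulin-like growth factors, ran from 18.2 to 983 CPM within WT control alone and had -3.42 ± 1.66 (adjusted p = 0.23). Without WT NASH 3 and 4 the list's median was -0.65 and 3 members passed. Without KI NASH 1 and 2 it was -1.79 and none passed (17 at an unadjusted p below 0.05, as were 2428 of all genes).

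The fatty acid synthesis list kept its median without WT NASH 3 and 4. Of 20 tested genes 5 passed (25%), all more negative in KI: Elovl5, Scd1, Scd2, Pnpla3 and Thrsp. The median interaction was -1.66, and without WT NASH 3 and 4 it was -1.79, with 1 gene passing. Without KI NASH 1 and 2 it was -1.73, again with 1 passing. Thrsp, a regulator of lipogenesis, was at 794, 783, 381 and 601 CPM in WT control, 822, 749, 999 and 784 in WT NASH, 827, 1850, 1670 and 1960 in KI control, and 525, 409, 190 and 149 in KI NASH. The 3 high libraries were KI control 2 to 4, and KI NASH lay below every other library but WT control 3. The interaction was -2.7 ± 0.51 (adjusted p = 0.014). Pnpla3, a lipid droplet lipase, was at 16.5, 12.1, 12 and 13.2 CPM in KI NASH against 18.5, 185, 138 and 141 in KI control, and had -4.28 ± 0.96 (adjusted p = 0.023).

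KI control library 1 was unlike the other KI control libraries in these pathways. The fatty acid synthesis list stood at -0.49 there and at 0.74 to 1.37 in KI control 2 to 4, and the cholesterol list at -1.15 against 0.54 to 1.19. Both lists thus put this library on the other side of the WT control mean from KI control 2 to 4. In KI NASH the cholesterol list stood at -0.79, -1.46, -1.22 and -0.96, and its median interaction over 24 genes was -0.98.

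Plin4 (chr17:56100591-56109803), perilipin 4, a coat protein of lipid droplets, was at 23.7, 12.2, 9.79 and 17.9 CPM in WT control, 23.2, 21.5, 77.9 and 58.6 in WT NASH, 135, 43.3, 126 and 183 in KI control, and 12, 12.7, 11.9 and 5.7 in KI NASH. Its interaction was -5.03 ± 0.68 (adjusted p = 0.0071), and it passed without WT NASH 3 and 4 (-4.01, adjusted p = 0.018) and without KI NASH 1 and 2 (-5.29, adjusted p = 0.037). Plin5, perilipin 5, which ties droplets to mitochondria, had -2.48 ± 0.45 (adjusted p = 0.012) and did not pass without KI NASH 1 and 2 (-2.46, adjusted p = 0.067). These were 2 of 17 tested lipid droplet genes (11.8%), with a list median of -0.16.

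**Figure D4:**
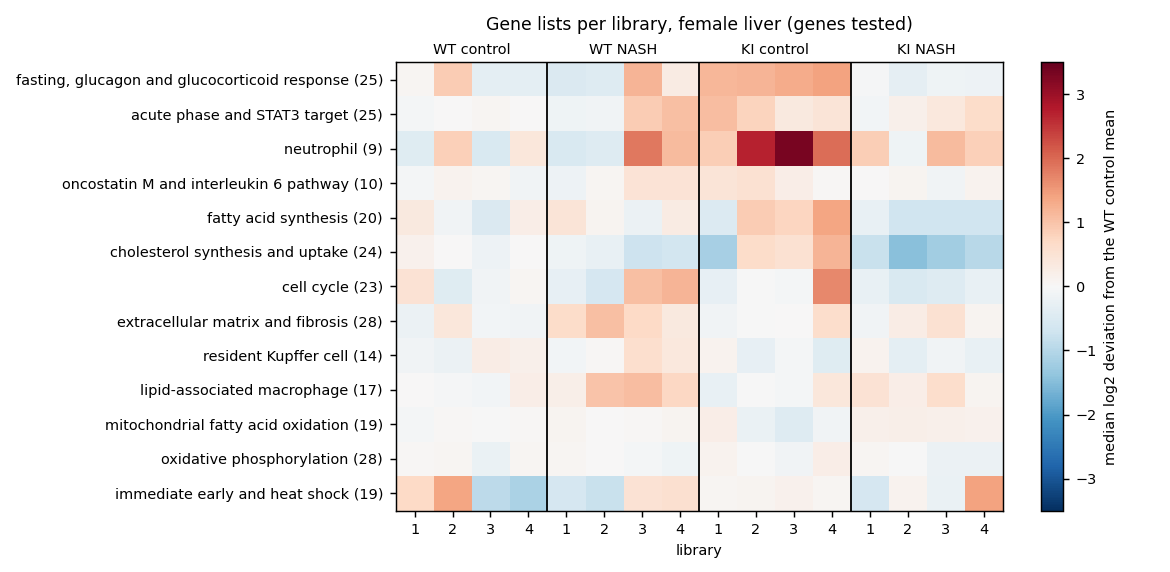
Median log2 deviation from the WT control mean for 13 gene lists (rows, with the number of genes tested) in each of the 16 female liver libraries (columns). The fasting list is raised in all 4 KI control libraries, in WT NASH 3 and in WT control 2, while the fatty acid and cholesterol lists are highest in KI control 2 to 4 and lie below the WT control mean in all 4 KI NASH libraries.

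The lists of resident Kupffer cells (14 tested), lipid-associated macrophages (17), recruited monocytes (12), T and NK cells (14), B and plasma cells (9), stellate cells (13) and cholangiocytes (10) had no member past the threshold in edgeR's quasi-likelihood test. At an unadjusted p below 0.05 they held 3, 0, 3, 0, 2, 1 and 5 genes in that order. Over all 13315 genes tested, 3039 had an unadjusted p below 0.05. DESeq2 called 3 cholangiocyte genes and none in the other lists. Trem2, a receptor of lipid-associated macrophages, had an interaction of -0.56 ± 0.67 (adjusted p = 0.66) at 1.06 CPM on average. The Kupffer cell genes summed to 633 to 837 CPM for KI control and 708 to 925 for KI NASH. The cholangiocyte genes summed to 82.6 to 131 CPM in WT NASH against 44.3 to 91.6 over the other groups. Spp1 is on the cholangiocyte list and made up a large part of that sum. It alone was at 49.3, 86.2, 95.6 and 85.9 CPM in WT NASH and at 19 to 52.9 over the other groups. The sum without Spp1 was not taken. Lyve1, a hyaluronan receptor of sinusoidal endothelium, was the only one of 14 endothelial genes to pass (7.14%). Its CPM ran from 7.62 to 9.76 for WT control, 17.2 to 36 for WT NASH, 25.1 to 37 for KI control and 11.6 to 21.9 for KI NASH, with an interaction of -2.21 ± 0.34 (adjusted p = 0.0083). Oxidative phosphorylation (28 genes), interferon response (23), the circadian clock (17) and immediate early and heat shock genes (19) had no member past the threshold either, with 0, 2, 8 and 5 genes at an unadjusted p below 0.05. DESeq2 called 0, 0, 5 and 1 of them. The immediate early list had a median of 1.13, and its libraries differed within WT control, from -1.1 to 1.37.

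The male livers of the series give libraries that the classes above did not use. They were fitted with the female livers on 13415 genes, and the male interaction passed for 454 (3.38%). Over genes with 20 to 200 summed counts, male WT control 3 and 4 agreed more closely than sampling noise between separate libraries allows. Their mean chi-square was 0.0671 per gene, against 2.85 or more for every pair of female libraries in a group. They were counted as 1 sample. Both carry the sex genes of a female, with Xist at 626 and 446 CPM, so they are not alike in every gene. Their mean was kept in the male values below except where stated. It therefore enters each male WT diet effect, male interaction and sex difference. Of the 32 vanished genes measured, 31 had a male interaction of the same sign (96.9%, against 52.8% of all genes tested in both), with a median of -0.44, and 9 passed in males (28.1%, against 3.36%). These were Anxa2, Col4a2, Pkm, Ccdc120, Ttc39b, Pgap1, Mfhas1, Hook2 and Nxpe2. Without the male pair 30 of 32 had the same sign and 12 passed, where 8.3% of all genes passed.

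For Anxa2 the male diet effect was 3.34 in WT and 0.77 in KI, with an interaction of -2.57 ± 0.39 (adjusted p = 0.0013). Col4a2 had -1.28 ± 0.34 (adjusted p = 0.034) in males, and Pkm, the pyruvate kinase of most tissues outside hepatocytes, -1.16 ± 0.22 (adjusted p = 0.0049). Ttc39b, a regulator of lipoprotein metabolism that was lower on the NASH diet in WT, had 1.26 ± 0.21 (adjusted p = 0.0023). Scd2 had -2.07 ± 0.75 and Col4a1 -1.16 ± 0.37 in males, and neither passed (adjusted p = 0.11 and 0.074). Spp1 itself passed in males, with a diet effect of 3.32 in WT and 0.72 in KI and an interaction of -2.6 ± 0.57 (adjusted p = 0.013). The difference between the sexes did not pass for Spp1 (adjusted p = 0.34) or for any of the 6 genes before it (adjusted p of 0.11 to 0.97), which does not show that the sexes are alike.

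The turned and appearing genes had male medians of 0.06 to 0.33, whatever their sign in females. These values keep male WT control 3 and 4 as 1 sample with female sex genes, which limits them. Of 167 turned genes with a more negative effect in KI, 78 had the same sign in males (46.7%), with a median of 0.06 against -2.5 in females. Of 122 appearing genes with a more negative effect, 25 had the same sign (20.5%), with a male median of 0.33. The genes with a positive turn had the same sign in 42 of 57 (73.7%), with a median of 0.3 against 1.74. Appearing genes with a more positive effect had it in 96 of 146 (65.8%), with a male median of 0.14. Male interactions leaned positive over all genes, with 5932 of 13415 negative. The female minus male difference of the interaction passed for 468 genes (3.49%), of which 317 were more negative in females. Without male WT control 3 and 4 it passed for 962, of which 558 were more negative. Sult1e1 had a male interaction of 2.64 ± 1.53 and Lpin1 of 2.48 ± 0.89, neither of which passed alone (adjusted p = 0.32 and 0.11). The sex difference passed for both, at -10.64 and -6.03. Other turned genes had the female sign in males without passing, such as Cdkn1a (-3.62 ± 1.28, adjusted p = 0.1), Cyp2b10 (-2.54 ± 1.82, adjusted p = 0.44), Lgr5 (1.56 ± 0.5, adjusted p = 0.075) and Amigo1 (0.82 ± 0.3, adjusted p = 0.11).

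**Figure D5:**
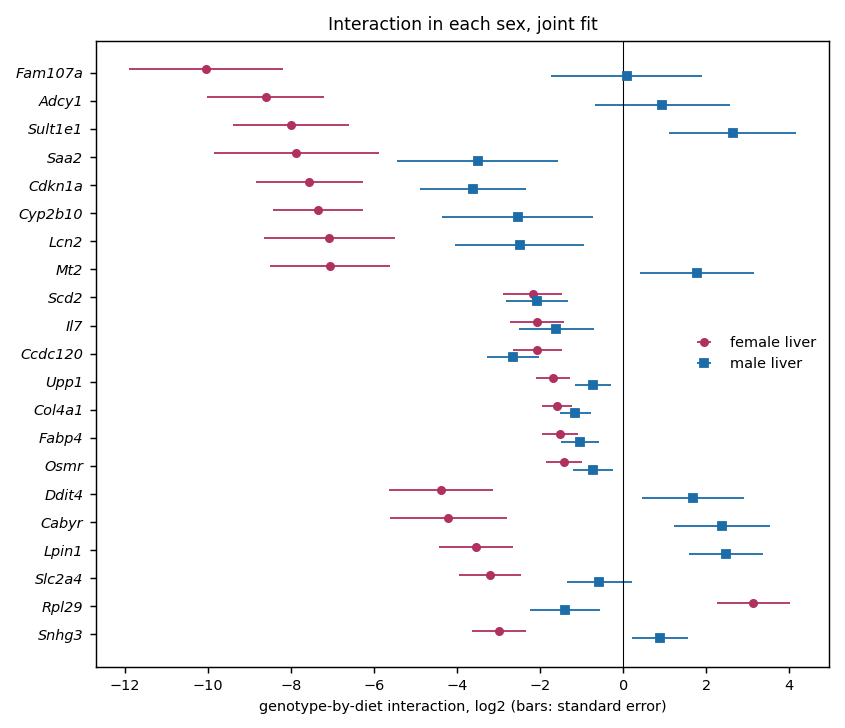
Genotype-by-diet interaction (log2, points, with bars of 1 standard error) in female and male liver from the joint fit, for 21 of the 24 largest genes of the 3 classes. From Scd2 to Osmr, the vanished genes, both sexes lie left of 0, while Fam107a, Adcy1, Sult1e1, Mt2, Ddit4, Cabyr, Lpin1, Rpl29 and Snhg3 lie on opposite sides of it.

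In the female resident liver macrophages of the series (F4/80high CD11blow) the interaction passed for 37 of 12838 genes (0.288%). Cdkn1a had -0.43 ± 0.47 there (adjusted p = 0.86), Mt2 -0.39 ± 0.59 (adjusted p = 0.9), Scd2 -0.63 ± 0.4 (adjusted p = 0.68) and Col4a1 0.73 ± 0.74 (adjusted p = 0.83). None of these liver genes passed in the sorted cells. Spp1 in macrophages had a diet effect of 5.61 in WT and 3.46 in KI, with an interaction of -2.15 ± 1.74 (adjusted p = 0.77).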

How the data were processed

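Libraries were made from total liver RNA with a TruSeq Stranded mRNA kit, per the labels' protocols. The authors deposited raw counts per gene symbol, on build mm10 per the submitters' processing notes. The sources used here do not give the aligner, counter, annotation or strand setting, so overlapping, antisense and paralogous genes are uncertain. Counts were fitted with edgeR 4.0.16 in R 4.3.3 (TMM scaling, filterByExpr with min.count 10 and min.total.count 15, 1 mean per group, quasi-likelihood test, Benjamini-Hochberg over all genes tested, threshold 0.05). Adjusted p values come from this test. CPM are TMM-scaled. Standard errors are approximated as the fold change over the root of F. The script was tested on simulated data. Genes were named as the 8 largest interactions per class at a mean of at least 1 CPM, plus Spp1, Cd44, Lyz2, Cdkn1a, Igfbp1, Stat3 and Arg2, and up to 4 per list by p. Others named were chosen after their values were seen, among them the vanished genes past the threshold in males. So were the genes that held both without WT NASH 3 and 4 and without KI NASH 1 and 2. Arg2 had an interaction of -2.59 ± 0.77 (adjusted p = 0.063). Some genes the rule names are not reported here. Members and lists were chosen with earlier results of these data known. Gene positions are GENCODE M21 on mm10, and upstream windows are RefSeq GRCm38.p6. Alternatives were DESeq2 1.42.0, limma 3.58.1 voom, other scalings and filters, a replicate block, other class bounds and libraries left out.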

Additional observations from a re-analysis of the deposited data

Results flagged for a closer look

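Some libraries stood apart from their own group in a single gene. Among 116 groups of 4 libraries checked, 4 held such a library, and chance gives about 1 in 20. Cyp2b10 in WT NASH library 3 was at 18.5 CPM against 5.14 to 6.03 in the others. Urml in KI NASH library 1 was at 15.7 CPM against 23.1 to 24.5. Spp1 in WT NASH library 1 was at 49.3 CPM against 85.9 to 95.6, and Cd44 in WT control library 1 was at 14.4 CPM against 17.7 to 18.3.

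The interaction differed between female and male liver for 468 genes in the joint edgeR fit. Among the named genes the female minus male difference was -10.13 for Fam107a (adjusted p = 0.031), -9.55 for Adcy1 (0.017), -10.64 for Sult1e1 (0.0097) and -8.83 for Mt2 (0.017). It was -6.08 for Ddit4 (adjusted p = 0.049), -6.58 for Cabyr (0.044), -6.03 for Lpin1 (0.013) and -3.88 for Snhg3 (0.023). Stat3 had -1.76 (adjusted p = 0.042), although its female interaction did not pass. Rpl29 had 4.54 (adjusted p = 0.039).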

How the results depend on the processing

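The main analysis had 635 genes past the threshold (280 positive, 355 negative), 232 turned, 33 vanished and 274 appearing, with 7 diet genes in WT and 1176 in KI. All 635 kept their sign in every alternative that measured them, which follows in part from their choice in these same libraries. DESeq2 gave 1226 (510 positive, 716 negative), with 355 turned, 96 vanished, 530 appearing and 314 WT diet genes. Voom with quality weights gave 1202 (612 and 590), with 129 vanished, 452 appearing, and 19 WT and 1933 KI diet genes. No filter on low counts gave 15 WT diet genes. Library totals without scaling factors took the median of all genes from -0.01 to 0.173 and gave 864 (609 positive, 29.5% negative against 55.9%), with 458 appearing, and 12 WT and 2516 KI diet genes. An absolute interaction of at least 1 left 154 positive genes, and a class bound of 1 left 72 turned.

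The library numbers share only a number. Deviations of same-numbered libraries correlated at -0.188 to 0.134, and 3 of 16 libraries correlated best with their own number. With the replicate block 464 genes passed, 236 of them negative, and 1 WT diet gene.

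Without WT NASH 3 and 4 there were 73 genes (33 positive, 40 negative), 18 turned, 6 vanished and 42 appearing, with 1 WT and 1863 KI diet genes. Without KI NASH 1 and 2 there were 25 (12 and 13), 16 turned, 1 vanished and 8 appearing, with 0 WT and 36 KI diet genes. Without KI NASH 3 and 4 there were 7 (6 and 1), 4 turned, 0 vanished and 3 appearing, with 1 WT and 2 KI diet genes. These pairs and the library totals were chosen after seeing the data.

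Leaving out 1 library gave 254 to 1198 genes, 85 to 548 positive, 159 to 650 negative, 87 to 450 turned, 14 to 148 vanished and 98 to 377 appearing, with 0 to 117 WT and 466 to 1392 KI diet genes. Without male WT control 3 and 4 the sex difference passed for 962 genes in place of 468. Over 26 alternatives the 24 largest genes gave 624 values, of which 493 passed and 131 did not. None of the 24 genes passed in all 26 alternatives. The cause of these differences was not tested. Exonic length and the interaction had a Spearman correlation of -0.02 over 13230 genes.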

Other observations

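Rpl29, a protein of the large ribosomal subunit, was alone among the 8 largest appearing genes in having a more positive effect in KI (3.12 ± 0.75, adjusted p = 0.028). It was at 18.1 to 34.6 CPM in all 8 WT libraries, at 1.34 to 2.65 CPM in KI control, and at 13.5, 14.2, 1.46 and 29.3 CPM in KI NASH libraries 1 to 4. KI NASH library 3 thus had the level of KI control and the other 3 came near WT. Ribosomal protein genes have many processed copies, so the counting of Rpl29 is uncertain. KI NASH 3 was also the library with the highest Lyz2, at 62.9 CPM, whereas KI NASH 4 with 38.1 CPM of Lyz2 had 29.3 CPM of Rpl29.

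Fam107a, an actin-binding protein induced by stress and glucocorticoids, had the largest interaction among the named genes, at -10.08 ± 1.75 (adjusted p = 0.011). It was at 36, 3.76, 12.5 and 24 CPM in KI control and at 0.107, 0.0451, 0.274 and 0 in KI NASH. In WT it was at 0.0934, 1.19, 0.233 and 0.0451 on the control diet and 0.216, 0.304, 8.57 and 1.16 on the NASH diet. Outside KI control it had 197 reads in WT NASH library 3 and 0 to 26 reads in each other library. The fitted fold change can depend on the prior count, which was not varied. Without WT NASH 3 and 4 it was -6.78 and did not pass (adjusted p = 0.15).

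Irs1, the insulin receptor substrate, and Gas1, a membrane protein of growth arrest, were chosen after their values were seen. Irs1 was at 43.9, 38.1, 11.2 and 15.1 CPM in WT NASH and 9.68 to 13 CPM in KI control, against 34.7 to 46.7 in WT control and 31.2 to 45.1 in KI NASH. Its interaction of 2.27 ± 0.45 (adjusted p = 0.017) was 1.67 without WT NASH 3 and 4, and it still passed (adjusted p = 0.011). Without KI NASH 1 and 2 Irs1 did not pass. Gas1 was at 29.2, 40.1, 5.31 and 12.2 CPM in WT NASH and 5.97 to 8.01 CPM in KI control, and had 2.77 ± 0.58 (adjusted p = 0.019). WT NASH libraries 1 and 2 of both genes lay at the WT control level.

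The cell cycle list had a median interaction of -1.64 over 23 genes, of which 1 passed (4.35%), and the median was -0.48 without WT NASH 3 and 4. The gene was Rrm2, the ribonucleotide reductase subunit of dividing cells. It was at 15, 17.5, 29 and 43.3 CPM in KI control and 3.75, 3.75, 3.38 and 4.84 in KI NASH, against 4.81, 6.28, 6.66 and 6.36 in WT control and 2.63, 2.89, 14.9 and 24.4 in WT NASH, with an interaction of -3.63 ± 0.79 (adjusted p = 0.023). Tfeb, a regulator of lysosomal genes, was the only one of 22 lysosome genes to pass, with 1.13 ± 0.25 (adjusted p = 0.023).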
